A study of Homo sapiens with 6 samples.

Results

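The genes described here are 54 genes of DNA replication and its licensing. They encode the proteins that load and start replication origins, the replicative helicase, the DNA polymerases with their clamp and single-strand binding protein, the enzymes that supply nucleotides, and factors that protect the fork or package the new DNA. The members were chosen by name, and every probe set that the platform annotation assigns to 1 of them was taken, which gave 107 of 54613 probe sets. All 54 genes were measured, of 19775 genes on the array, and 32 of them had more than 1 probe set. RNA came from side population (SP) cells and from non-SP cells of IGROV1, an established human ovarian carcinoma line grown in RPMI medium with fetal bovine serum and given no treatment besides Hoechst dye staining and sorting. SP cells keep little of this DNA-binding dye because membrane pumps export it, and non-SP cells are those outside that gate. Each group had 3 samples, labelled as biological replicates, with 1 array per sample, and no label names separate cultures. The p-values therefore measure only the spread between these samples, which may be technical.

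Before a cell copies its DNA, the origin recognition complex (ORC), CDC6 and CDT1 load rings of MCM2 to MCM7 onto origins in G1 phase, which is called licensing. At the start of S phase, cyclin E with CDK2, and CDC7 with its partner DBF4, switch these rings on by adding CDC45 and the GINS complex, and geminin (GMNN) blocks further loading. Transcription of many of these genes is driven at the G1/S boundary by E2F factors, and proliferating tumour lines such as IGROV1 use them throughout growth. In RNA from a bulk sort, a larger share of cells in S phase and more RNA per cell cannot be told apart. The dye binds DNA, so its signal also depends on how much DNA a cell holds.

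Values are log2 levels after RMA, the authors' normalization, which sets all arrays to a shared distribution. The median of all probe sets lay between 5.59 and 5.64 on the 6 arrays, and all 54 genes exceeded, on every array, that array's average negative control (2.82 to 2.96). The carcinoma markers EPCAM and PAX8 were present in every sample (EPCAM 12.00 to 12.29, PAX8 10.14 to 10.67). The other carcinoma markers examined ran from KRT7 (10.53 to 11.62) down to MUC16 (4.90 to 5.48). KRT7, KRT8 and EPCAM differed by 0.79, -0.71 and -0.15 without overlap (limma adjusted p = 0.451, 0.611 and 0.886). PAX8, WT1, KRT18, MUC16 and CLDN3 overlapped between groups. The leukocyte genes PTPRC and CD3E lay near the negative controls (2.24 to 3.53 and 2.24 to 2.64). Other markers of blood and vessel cells lay above the negative controls on all 6 arrays, namely CD14 of monocytes (5.22 to 5.56), HBB of red cells (5.38 to 5.61) and PECAM1, VWF and CDH5 of endothelium (5.61 to 6.17, 4.63 to 5.22 and 6.26 to 6.97). Their part in the results was not tested. ABCB1, the pump P-glycoprotein that exports Hoechst, was at 8.61, 10.16 and 10.22 in SP samples 1 to 3, against 4.26, 5.81 and 4.59 in non-SP samples 1 to 3. ABCG2, another pump that exports the dye, was at 4.03, 5.598 and 4.53 in SP samples and at 4.73, 5.37 and 4.59 in non-SP samples, with overlapping groups. The arrays also fell into 2 sets by ASNS, the gene of asparagine synthetase, a target of the amino acid stress response. ASNS was above a log2 level of 11 in SP 2, SP 3 and non-SP 2 (12.39, 12.43 and 12.64) and below it in SP 1, non-SP 1 and non-SP 3 (9.78, 9.60 and 9.90). The ACTB 3' minus 5' control signal, a measure of how far RNA or cDNA is truncated, lay between 2.46 and 2.55 on the arrays with high ASNS. On the others it lay between 2.02 and 2.29. The same signal for GAPDH did not separate the sets, with 0.04 to 0.36 on the arrays with high ASNS and 0.04 to 0.15 on the others. The part of the ASNS sets or of truncation in the results below was not tested beyond the fits given with them.

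Set against non-SP cells, a comparison that asks how cells that export the dye differ from those that retain it, SP cells differed in 0 of the 54 genes at an adjusted p of 0.05 (limma, Benjamini-Hochberg over all 19775 genes; the smallest adjusted p was 0.411, and 0.00506% of all genes passed). At an unadjusted p under 0.05, 4 members were higher in SP cells and 0 were lower, namely MCM10, MCM8, HELLS and POLA2. That is 7.41% of the members on the higher side, against 3.07% of all genes, and on the lower side 3.71% of all genes reached this level. The lowest SP value exceeded the highest non-SP value for 8 members (14.8%; 4.78% of all genes) and the reverse held for 2 members (7.1% of all genes). The members with SP above were the same 4 together with GINS1, FEN1, GMNN and DTL, and those with SP below were MCM6 and RFC5.

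Differences were small. The median SP minus non-SP difference of the 54 genes was 0.08 on the log2 scale, against -0.02 for all genes, and 34 members (63.0%) were above 0, against 45.2% of all genes. The differences ran from -0.32 to 0.62. The 95% interval lay within -1 to 1 for 48 of the 54, against 16607 of all 19775 genes. The exceptions among the 54 were CDT1, CDC6, GINS3, GINS4, POLD3 and CHAF1A. Without non-SP sample 2 the median of the members was 0.0021, and 27 of 54 genes were above 0.

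**Figure D1:**
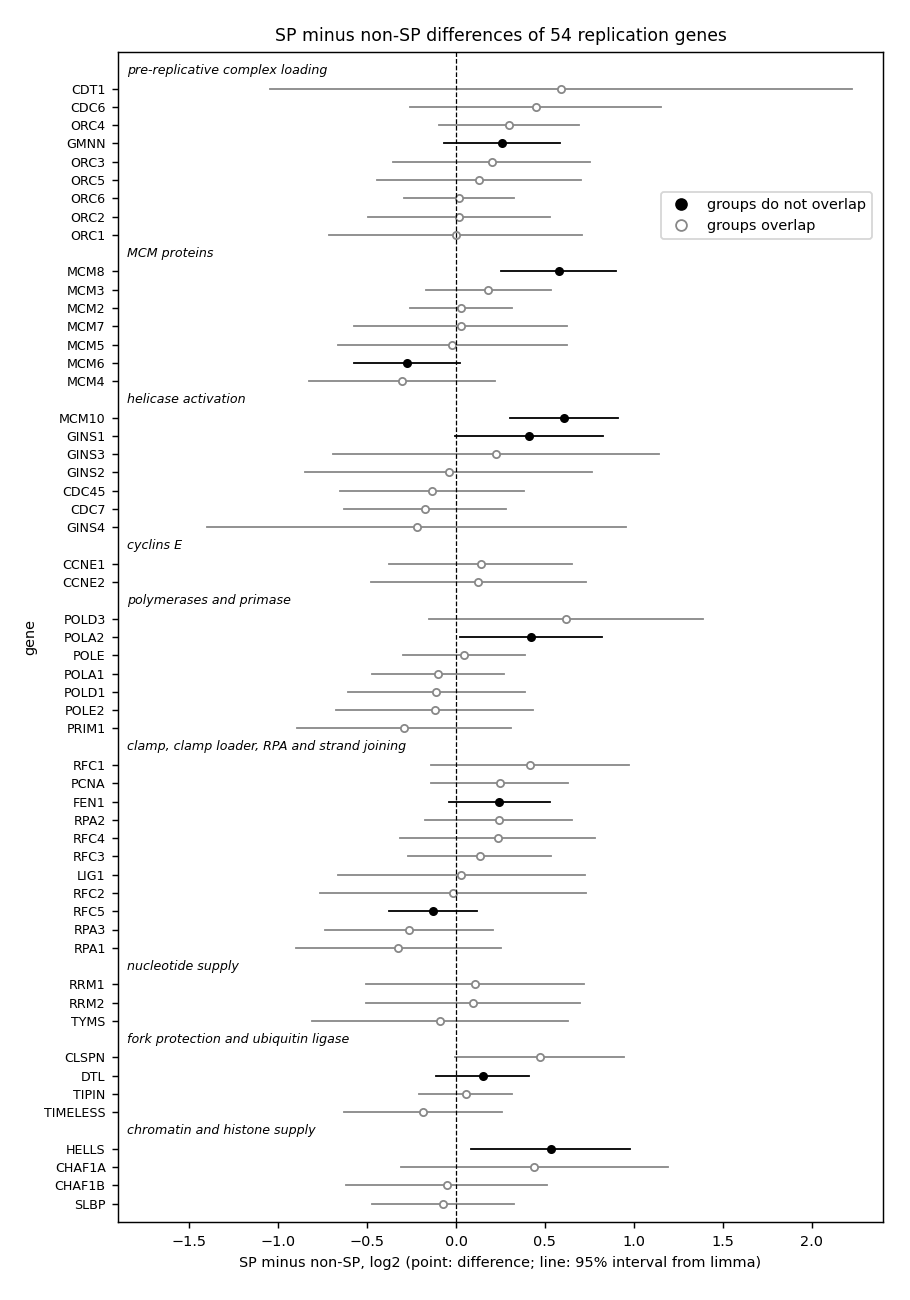
SP minus non-SP difference of each of the 54 genes on the log2 scale, grouped by role, with the 95% interval from the limma fit. Filled black points are the 10 genes whose groups do not overlap and open grey points the other 44. Most intervals span 0, and those of MCM10, MCM8, HELLS and POLA2 lie above it.

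Promoter sequence was not used to choose these genes, but they were chosen as replication genes, many of which E2F factors drive. The share of their promoters with an E2F site is therefore not independent of that choice. Within 250 bases before to 50 bases after the RefSeq start (GRCh38.p14), 47 members had a promoter sequence, and 22 of these (46.8%) held an E2F site written as TTTCCCGC, TTTCGCGC, TTTGCCGC or TTTGGCGC on either strand. Of all 27305 promoters of this length 3.33% held such a site, and of 24 promoters of G2/M genes 8.33%. A CCAAT box (CCAAT) stood in 59.6% of the members' promoters, against 35.7% of all promoters. It stood in 75.0% of the G2/M promoters and in 54.1% of those of the other replication genes. A cell cycle homology region, written as TTTGAA, stood in 2.13% of the members' promoters, against 75.0% of the G2/M promoters and 15.4% of all promoters. A TATA box (TATAAA) stood in 2.13% of the members' promoters and in 12.0% of all. The 22 genes with an E2F site had a median SP minus non-SP difference of 0.17 and the 25 without one 0.02, with ranges of -0.28 to 0.59 and -0.32 to 0.61 that overlap almost fully. Such a match is a run of letters and was not tested as a binding site.

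The 120 bases before the start are printed for 5 members to show what such a promoter looks like: MCM6 and POLA2, whose samples did not overlap in opposite directions, HELLS and PCNA, and MCM10, which holds no such site. Letters in capitals are the E2F sites, read 5′ to 3′ on the strand of the gene. MCM6 lies at chr2:135876444-135876563 on the minus strand, HELLS at chr10:94545668-94545787 on the plus strand, POLA2 at chr11:65261842-65261961 on the plus strand, PCNA at chr20:5126623-5126742 on the minus strand and MCM10 at chr10:13161438-13161557 on the plus strand.
MCM6: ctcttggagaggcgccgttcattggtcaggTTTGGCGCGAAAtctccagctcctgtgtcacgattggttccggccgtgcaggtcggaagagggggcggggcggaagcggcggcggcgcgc
HELLS: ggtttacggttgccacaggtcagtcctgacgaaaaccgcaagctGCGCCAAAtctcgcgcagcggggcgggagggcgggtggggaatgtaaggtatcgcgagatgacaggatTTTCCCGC
POLA2: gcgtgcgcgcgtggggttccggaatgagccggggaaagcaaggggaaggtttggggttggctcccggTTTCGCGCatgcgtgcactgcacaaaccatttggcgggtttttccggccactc
PCNA: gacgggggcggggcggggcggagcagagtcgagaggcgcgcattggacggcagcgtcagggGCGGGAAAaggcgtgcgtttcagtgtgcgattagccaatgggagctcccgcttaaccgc
MCM10: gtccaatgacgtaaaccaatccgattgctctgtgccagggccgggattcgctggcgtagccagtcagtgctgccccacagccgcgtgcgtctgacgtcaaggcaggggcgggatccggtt
In MCM6 the capitals are 2 sites that overlap on opposite strands, and its 300-base window holds 4 in all, the most of any member. In HELLS 1 site ends at the base before the start, and the other begins 76 bases before it. The single sites of POLA2 and PCNA begin 53 and 59 bases before the start. CLSPN, CDT1, TYMS and DTL also hold 1 site each.

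Origin loading comes first in the order of events, and 0 of its genes passed the adjusted threshold. Of the 9 genes that load the helicase or limit its loading, 8 had a difference above 0, with a median of 0.20. GMNN, the inhibitor of CDT1, was at 10.26, 10.27 and 10.17 in SP samples, against 10.09, 9.75 and 10.08 in non-SP samples. Its groups did not overlap, and the difference was 0.26 (SE 0.14; limma adjusted p = 0.816), or 0.15 without non-SP 2. ORC4, a subunit of the complex that marks origins, was at 8.20, 8.54 and 8.38 in SP samples and at 7.87, 8.33 and 8.03 in non-SP samples, a difference of 0.30 (SE 0.16; limma adjusted p = 0.837) with overlapping groups, or 0.19 without non-SP 1. The other ORC genes lay between -0.0031 for ORC1 and 0.20 for ORC3.

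CDC6, the loader that joins ORC on the origin, was at 8.84, 9.85 and 9.86 in SP samples, against 8.92, 9.29 and 9.003 in non-SP samples. SP 2 and SP 3 stood above the other 4 arrays and SP 1 was the lowest of all, so the difference of 0.45 (SE 0.30; limma adjusted p = 0.876) is smaller than the spread among SP samples (SD 0.59). It was 0.79 without SP 1 and 0.28 without SP 2 or without SP 3. CDT1, which brings the MCM ring to the origin, scattered more than any other member, with 8.62, 7.36 and 7.37 in SP samples and 8.24, 5.71 and 7.64 in non-SP samples. Non-SP 2 alone was far below the rest. The CDT1 difference of 0.59 (SE 0.68; limma adjusted p = 0.93) became -0.15 without that sample, 0.17 without SP 1 and 1.11 without non-SP 1. The CDT1 probe set used carries the _x_at suffix of sets that may hybridise to other transcripts, as do those of ORC6 and CHAF1A.

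The 6 genes of the replicative helicase ring, MCM2 to MCM7, lay on both sides of 0: their median was 0.0025, with differences from -0.30 for MCM4 to 0.18 for MCM3. MCM2 was at 9.33, 9.12 and 9.15 in SP samples and at 9.26, 9.13 and 9.12 in non-SP samples, values that cover nearly the same range. Its difference of 0.03 had a 95% interval of -0.26 to 0.31, so a change of 1 log2 unit in either direction lies outside it, as it does for the other 5 ring genes. MCM7 was at 11.06, 10.48 and 10.40 in SP samples and 10.90, 10.21 and 10.74 in non-SP samples, higher on the arrays with low ASNS in both groups. MCM6 was at 9.78, 9.64 and 9.50 in SP samples, below 9.96, 9.82 and 9.97 in non-SP samples. Its difference was -0.28 (SE 0.13; limma adjusted p = 0.746), and -0.15 (SE 0.15) when its probe sets were averaged.

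MCM8 and MCM10 carry the family name without being ring subunits. MCM8 forms a helicase with MCM9 that acts in homologous recombination, and MCM10 helps the loaded ring to start unwinding. MCM8 was at 9.57, 9.60 and 9.64 in SP samples and at 9.25, 8.89 and 8.94 in non-SP samples, so the lowest SP value lay above the highest non-SP value. The MCM8 difference was 0.58 (SE 0.14), or 1.49-fold with a 95% interval of 1.19 to 1.87 (limma adjusted p = 0.476). MCM10 was at 9.63, 9.74 and 9.81 in SP samples and at 9.16, 8.96 and 9.24 in non-SP samples, also without overlap. The MCM10 difference was 0.61 (SE 0.13), or 1.52-fold with an interval of 1.24 to 1.88 (limma adjusted p = 0.411). Both kept an unadjusted p under 0.05 when any 1 of the 6 samples was left out. The second MCM8 probe set differed by 0.26, and the other MCM10 probe sets by 0.53 and -0.08. Averaged over its probe sets, MCM10 differed by 0.35 (SE 0.20, unadjusted p = 0.119 in limma). The end of the MCM8 gene overlaps the antisense RNA gene MCM8-AS1 on chromosome 20 in RefSeq.

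**Figure D2:**
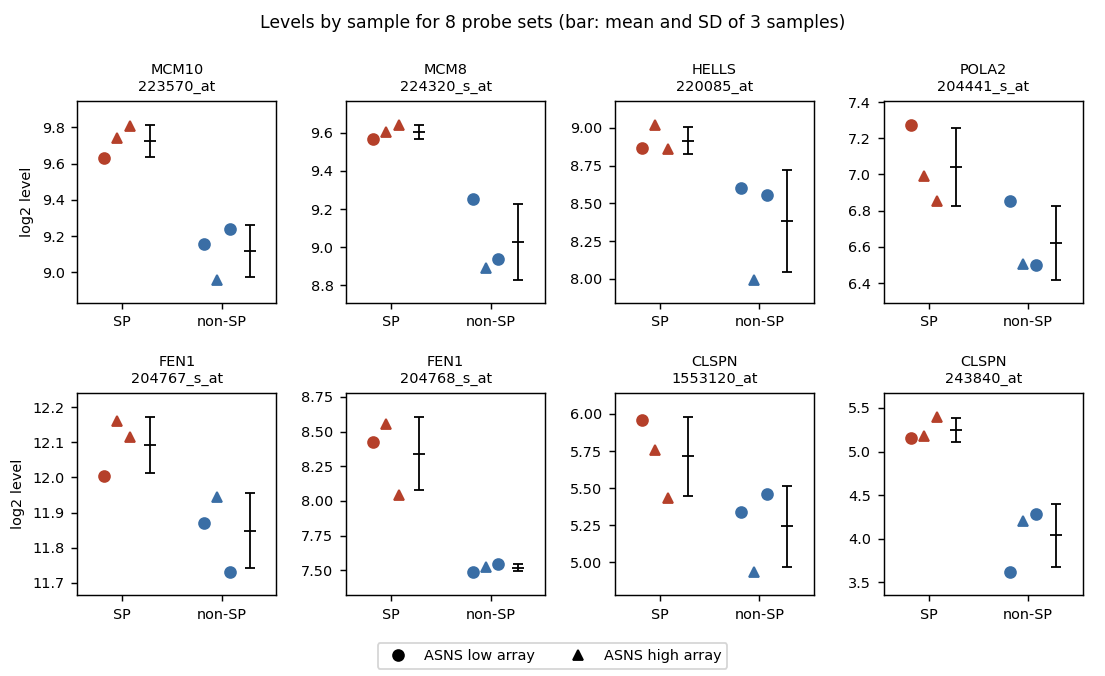
Log2 level in each of the 6 samples for 8 probe sets, with SP samples (red) left of non-SP samples (blue), circles for arrays with low ASNS and triangles for arrays with high ASNS; the bar gives the mean and SD of 3 samples. The probe sets shown were picked with their values known, so it is no result that the groups are apart in 7 of the 8 panels. They overlap for the CLSPN probe set used in the gene-level fit. Of all 107 probe sets of the members, 14 had SP above without overlap (13.1%, against 5.59% of all probe sets). SP was below without overlap for 3 of them, against 3753 of all 54613 probe sets.

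The genes that turn the loaded ring into a working helicase went both ways, with 3 of 7 above 0. GINS1, a subunit of the GINS complex that travels with the helicase, was at 8.54, 8.42 and 8.43 in SP samples and 8.23, 7.69 and 8.23 in non-SP samples. The groups did not overlap, and the difference was 0.41 (SE 0.17; limma adjusted p = 0.733). Without non-SP 2, the lowest array, it was 0.23 (SE 0.13). The other GINS genes differed by -0.04 (GINS2), 0.22 (GINS3) and -0.22 (GINS4), CDC45 by -0.13 and the kinase gene CDC7 by -0.18. The cyclin E genes, whose proteins activate CDK2 at the start of S phase, overlapped between groups: CCNE1 differed by 0.14 (SE 0.22; limma adjusted p = 0.955), and CCNE2 by 0.13 (SE 0.25; limma adjusted p = 0.968). The 3 SP values of CCNE1 lay close together at 8.25, 8.23 and 8.19, inside the range of 7.63, 8.46 and 8.17 in non-SP samples. CCNE2 was at 6.63, 7.13 and 6.72 in SP samples and 7.21, 6.43 and 6.47 in non-SP samples.

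Among the 7 genes of polymerases and primase the median was -0.10. POLA2, the regulatory subunit of DNA polymerase alpha, which with primase lays down the first stretch of each strand, was at 7.28, 6.99 and 6.86 in SP samples, against 6.85, 6.51 and 6.50 in non-SP samples. The lowest SP value and the highest non-SP value all but touched, and the difference was 0.42 (SE 0.17; limma adjusted p = 0.718). Averaged over its 3 probe sets, POLA2 differed by 0.13 (SE 0.10). POLA1, the catalytic subunit of the same enzyme, differed by -0.10, with 8.34, 8.47 and 8.79 in SP samples and 8.77, 8.59 and 8.54 in non-SP samples, and the primase gene PRIM1 by -0.29. POLD3, a subunit of polymerase delta, was at 8.96, 8.26 and 8.26 in SP samples and 7.90, 7.32 and 8.41 in non-SP samples. Its difference of 0.62 (SE 0.32; limma adjusted p = 0.809) came with overlapping groups, because non-SP 3 lay above SP 2 and SP 3. It was 0.34 without non-SP 2 and 0.39 without SP 1. POLD1, POLE and POLE2 lay between -0.12 and 0.04.

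Of the 11 genes for the sliding clamp, its loader, the single-strand binding protein RPA and strand joining, 7 were above 0, with a median of 0.13. FEN1, the nuclease that trims the flaps between Okazaki fragments, was at 12.00, 12.16 and 12.11 in SP samples and at 11.87, 11.94 and 11.73 in non-SP samples. The groups did not overlap, and the difference was 0.24 (SE 0.12; limma adjusted p = 0.782). PCNA, the clamp itself, was at 10.04, 9.77 and 9.81 in SP samples and 9.69, 9.37 and 9.83 in non-SP samples, a difference of 0.25 (SE 0.16; limma adjusted p = 0.876) with overlapping groups. The PCNA difference was 0.12 without non-SP 2 and 0.16 without SP 1. LIG1, the ligase that seals the fragments, differed by 0.03.

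The clamp loader genes differed in both directions. RFC1, the large subunit, was at 8.11, 8.22 and 8.47 in SP samples and at 7.36, 8.12 and 8.07 in non-SP samples. SP 1 lay just below non-SP 2, so the groups overlapped, and the difference was 0.42 (SE 0.23; limma adjusted p = 0.838). Without non-SP 1, the lowest array, it was 0.17. The 3 RFC1 probe sets ranged from -0.42 to 0.42, with a mean of -0.02. RFC2, RFC3 and RFC4 differed by -0.02, 0.13 and 0.23. RFC5 was at 10.69, 10.70 and 10.67 in SP samples and 10.77, 10.84 and 10.85 in non-SP samples, apart but by only -0.13 (SE 0.10; limma adjusted p = 0.902). In RefSeq the RFC5 gene overlaps WSB2 on chromosome 12, and the probe set used varied far less between arrays than the other 2 RFC5 probe sets. For RPA, RPA2 differed by 0.24, RPA1 by -0.32 and RPA3 by -0.26.

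For all 3 nucleotide supply genes the lowest array was the same, non-SP 2. RRM1 and RRM2, the subunits of ribonucleotide reductase, differed by 0.11 (SE 0.26; limma adjusted p = 0.974) and 0.10 (SE 0.25; limma adjusted p = 0.975), and thymidylate synthase (TYMS) by -0.09. RRM2 was at 11.50, 11.59 and 11.49 in SP samples and at 11.71, 10.84 and 11.73 in non-SP samples. RRM1 was at 11.11, 10.57 and 10.49 in SP samples and 10.79, 10.16 and 10.91 in non-SP samples. Without that array RRM1 and RRM2 differed by -0.12 and -0.20.

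CLSPN, which encodes claspin, the adaptor that links a stalled fork to the checkpoint kinase CHEK1, was at 5.96, 5.75 and 5.43 in SP samples and at 5.34, 4.94 and 5.46 in non-SP samples. The groups overlapped through SP 3 and non-SP 3, and the difference was 0.47 (SE 0.20; limma adjusted p = 0.733). DTL, which targets CDT1 for destruction during S phase, was at 7.98, 7.81 and 7.92 in SP samples and 7.71, 7.79 and 7.76 in non-SP samples. Its groups did not overlap, and their nearest values were SP 2 and non-SP 2, with a difference of 0.15 (SE 0.11; limma adjusted p = 0.886). The fork protection pair TIMELESS and TIPIN differed by -0.18 and 0.05, and TIMELESS was at 10.29, 10.07 and 10.24 in SP samples and 10.41, 10.04 and 10.69 in non-SP samples.

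HELLS, a chromatin remodeller needed for DNA methylation of repeats, was at 8.87, 9.02 and 8.86 in SP samples and at 8.60, 7.995 and 8.56 in non-SP samples. The groups did not overlap, and non-SP 2 was the lowest array. The HELLS difference was 0.53 (SE 0.19), or 1.45-fold with a 95% interval of 1.06 to 1.97 (limma adjusted p = 0.666). Without non-SP 2 it was 0.34 (SE 0.13), and all 5 HELLS probe sets were above 0, from 0.11 to 0.53. CHAF1A, the large subunit of the histone chaperone CAF-1, was at 8.74, 8.53 and 8.49 in SP samples and at 8.59, 7.41 and 8.45 in non-SP samples, where 1 array was far below the other 5. Its difference of 0.44 (SE 0.31; limma adjusted p = 0.885) was 0.07 without non-SP 2 and also 0.07 when its 4 probe sets were averaged. CHAF1B, another CAF-1 subunit, differed by -0.05, and SLBP, which binds the stem loop of histone mRNAs, by -0.07, with 9.37, 9.30 and 9.06 in SP samples and 9.27, 9.10 and 9.58 in non-SP samples.

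**Figure D3:**
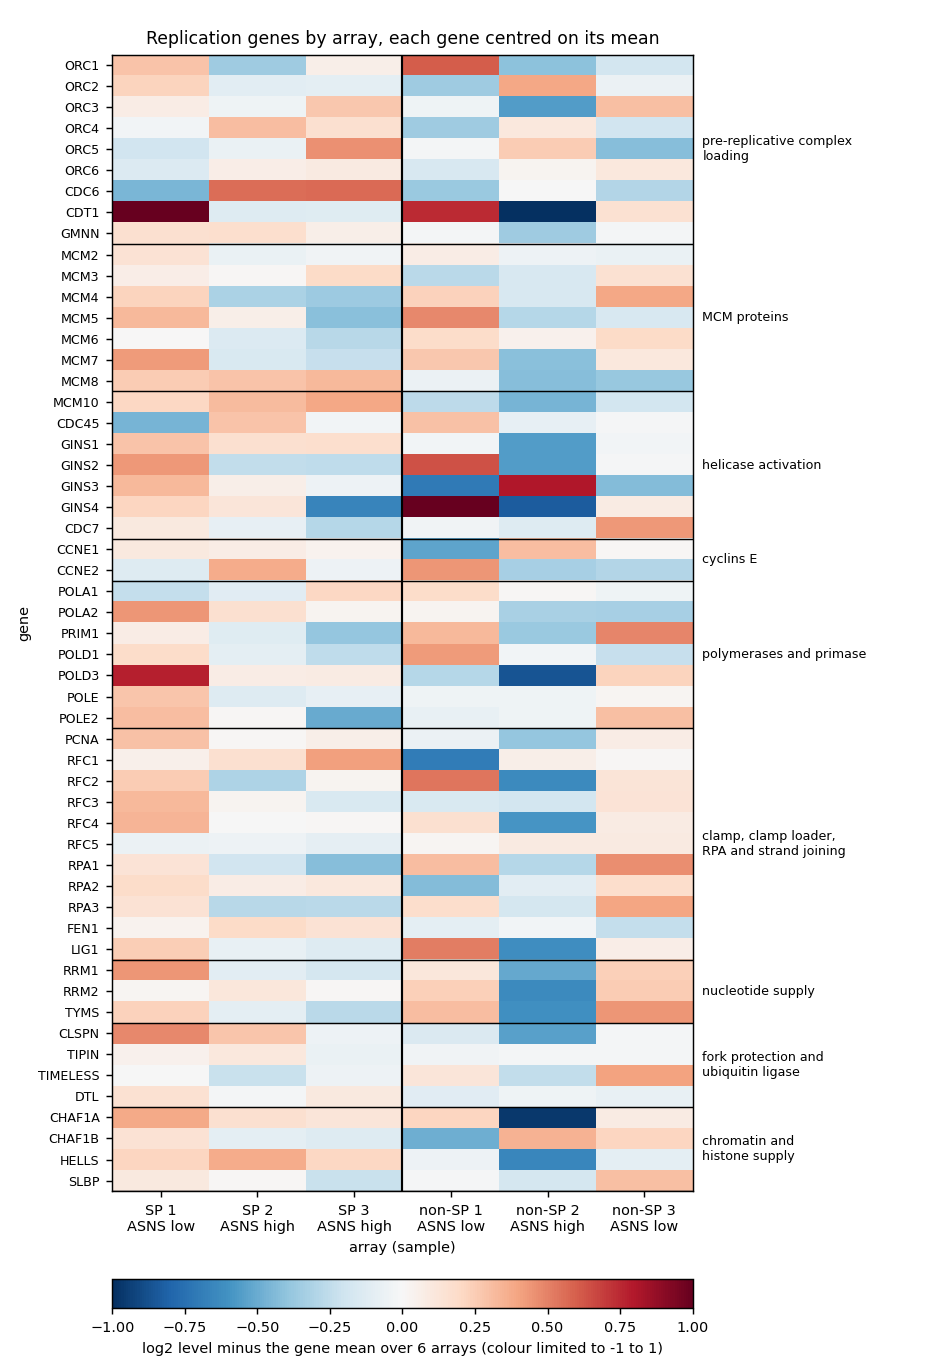
Log2 level of each of the 54 genes (rows, ordered by role) in each of the 6 arrays (columns, SP left of non-SP), after subtracting the gene's mean over the arrays; colours end at -1 and 1. The column of non-SP 2 is the lowest of the 6 for 24 genes, and rows such as MCM10 and MCM8 change colour at the line between the groups.

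Every probe set was also fitted on its own, with p-values adjusted over all 54613. Again 0 of the 107 passed (0.00183% of all probe sets did), and the smallest adjusted p was 0.251. At an unadjusted p under 0.05, 10 were higher in SP cells (9.35%, against 3.79% of all probe sets) and 2 were lower (3.52% of all probe sets). The 4 probe sets of the genes above were among the 10, and some of the others showed larger differences than the probe set used for their gene. These were picked out after their values were seen. A second CLSPN probe set was at 5.15, 5.18 and 5.40 in SP samples and at 3.62, 4.20 and 4.29 in non-SP samples, a difference of 1.21 (SE 0.21; limma adjusted p = 0.251) without overlap. Its level was low, with a mean at percentile 34.6 of all probe sets. In RefSeq the CLSPN gene overlaps the antisense RNA gene CLSPN-AS1 on chromosome 1. A second FEN1 probe set was at 8.43, 8.55 and 8.04 in SP samples and at 7.49, 7.53 and 7.54 in non-SP samples, a difference of 0.82 (SE 0.16; limma adjusted p = 0.313).

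The remaining probe sets at that level were higher for DTL (0.58), GINS3 (0.50), RFC3 (1.00) and HELLS (0.40), and lower for CHAF1A (-0.62) and MCM4 (-0.39). The RFC3 probe set had overlapping groups and a low level (3.08 to 5.06). Where several probe sets measured a gene (32 genes), 16 had all of them above 0, 5 had all below 0 and 11 had both signs. The differences of the probe sets spanned the widest range for CLSPN, from 0.01 to 1.21, and for CHAF1A, from -0.62 to 0.44. The CLSPN probe set at 0.01 had a low, flat level of 3.62 to 3.69. Another CLSPN probe set lay near the negative controls (2.81 to 3.52), and both enter the CLSPN average given next. After averaging over probe sets, FEN1 differed by 0.53 (SE 0.11), CLSPN by 0.49 (SE 0.10), DTL by 0.36 (SE 0.13) and MCM8 by 0.42 (SE 0.16), with limma adjusted p of 0.338, 0.305, 0.583 and 0.613.

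Within the arrays with high ASNS, where SP 2 and SP 3 stand against non-SP 2 alone, 39 of 54 members were above 0, with a median of 0.20. Of all 19775 genes 8600 were above 0 there, with a median of -0.04. Within the arrays with low ASNS, where SP 1 alone stands against non-SP 1 and non-SP 3, 34 members were above 0, with a median of 0.16. Of all genes 9581 were above 0 there, with a median of -0.01. For 25 members (46.3%) the difference was above 0 in both sets, against 24.2% of all genes, and for 6 it was below 0 in both, against 32.3% of all genes. MCM10 differed by 0.81 and 0.43 in the high and the low set, MCM8 by 0.73 and 0.47, POLD3 by 0.94 and 0.81, CLSPN by 0.66 and 0.56, POLA2 by 0.42 and 0.60 and CDT1 by 1.66 and 0.69. Those below 0 in both included MCM6 (-0.25 and -0.19). The remaining 23 members did not have 1 sign in both sets, against 8611 of all 19775 genes. Among these 23 were GINS3, with -0.79 and 0.89, and ORC2, with -0.49 and 0.43. Each set holds a single sample of 1 group, so these are values without a test, and the difference between the sets was not tested.

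**Figure D4:**
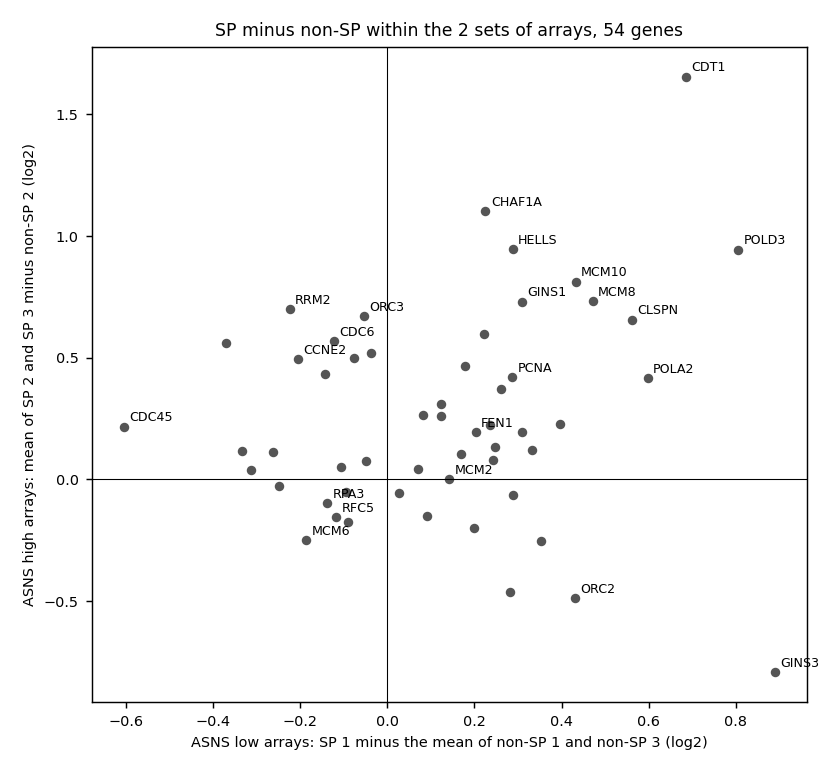
SP minus non-SP difference of each of the 54 genes within the 3 arrays with low ASNS (x axis) and within the 3 with high ASNS (y axis), on the log2 scale. The 25 genes to the upper right are above 0 in both sets, and CDT1 and POLD3 lie farthest from the origin there.

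With the ASNS set as a block, 0 members passed an adjusted p of 0.05 (0.0253% of all genes did; smallest adjusted p of a member 0.168). At an unadjusted p under 0.05, 13 members were higher in SP cells (24.1%; 5.1% of all genes) and 0 were lower (5.65% of all genes). They were the 4 named at the start, with CDT1, CHAF1A, CLSPN, GINS1, GMNN, PCNA, POLD3, RFC4 and RRM1. Under the same block 12 of the 30 G2/M genes (40.0%) were higher at that level and 0 were lower, and 73.3% of those genes were above 0 in both sets. POLD3 then differed by 0.87 (SE 0.17), CDT1 by 1.17 (SE 0.27) and PCNA by 0.35 (SE 0.11), with limma adjusted p of 0.168, 0.224 and 0.357. The sets were read from these same arrays, so such p-values may be too small. With the same block and without non-SP 2, which leaves the low set as the only contrast, 5 members were higher (CLSPN, GINS3, MCM10, POLA2 and POLD3) and 1, CDC45, was lower at that level, against 4.15% of all genes higher and 3.52% lower.

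Non-SP 2 was the lowest of the 6 arrays for 24 of the 54 members (44.4%), against 16.6% of all genes. SP 3 was the lowest for 11, non-SP 1 for 10 and each of the other 3 arrays for 3. SP 1 was the highest array for 16 members (29.6%), against 17.3% of all genes. The median of the members, each centred on its own mean, was 0.18, 0.01 and -0.04 in SP samples 1 to 3 and -0.02, -0.22 and 0.07 in non-SP samples 1 to 3. SP 1 and non-SP 2 thus stood at the ends, and the other 4 arrays lay between them.

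The same arrays were extreme for G2/M genes, 30 genes of mitosis such as CDK1 and MKI67, and by a wider margin. Their median was 0.52, -0.20 and -0.10 in SP samples and 0.23, -0.71 and 0.42 in non-SP samples, and non-SP 2 was the lowest array for 26 of the 30. Between SP and non-SP cells the G2/M median was -0.02, with 14 of 30 above 0 and 0 past the adjusted threshold. At an unadjusted p under 0.05, 4 were higher (13.3%, against 3.07% of all genes) and 0 were lower (3.71% of all genes). Within the arrays with high ASNS all 30 were above 0, and within the others 22 were. How far this array difference enters the values of the replication genes was not tested apart from the results given without non-SP 2.

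**Figure D5:**
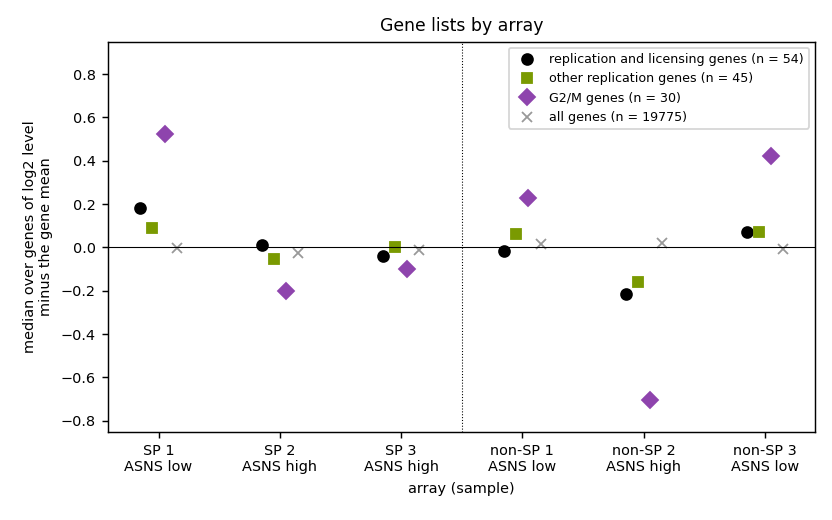
Median over the genes of a list of the log2 level minus the gene's mean, in each of the 6 arrays, with SP left of non-SP, for the 54 replication and licensing genes, 45 other replication genes, 30 G2/M genes and all genes. Non-SP 2 is the lowest array for the first 3 lists (-0.22, -0.16 and -0.71), while all genes stay near 0.

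A further 45 measured replication genes outside the 54 gave a median difference of 0.03, against -0.02 for all genes. Of these 45, 29 were above 0 (64.4%, against 45.2% of all genes) and 0 passed the adjusted threshold. At an unadjusted p under 0.05, 1 was higher in SP cells (2.22%, against 3.07% of all genes) and 2 were lower (3.71% of all genes). The counts at this unadjusted p are near the shares of all genes, while the share above 0 is higher than that of all genes. DBF4, the activating subunit of the CDC7 kinase, was at 7.15, 7.16 and 7.62 in SP samples and at 6.61, 6.73 and 7.10 in non-SP samples, a difference of 0.50 (SE 0.20; limma adjusted p = 0.707). DBF4B, a second activator of the same kinase, stood the other way, with 5.68, 6.44 and 5.78 in SP samples and 6.63, 7.94 and 7.48 in non-SP samples, a difference of -1.38 (SE 0.36; limma adjusted p = 0.531). RNASEH2C, a subunit of the nuclease that removes ribonucleotides from DNA, was at 10.43, 10.04 and 10.30 in SP samples and 10.75, 10.79 and 10.80 in non-SP samples, a difference of -0.52 (SE 0.14; limma adjusted p = 0.528). In all 3 genes the groups did not overlap, and the signs within the arrays with high and with low ASNS were the same as overall. DBF4B had 4 probe sets, RNASEH2C 2 and DBF4 1. The values are those of the brightest probe set of each gene, and the others are not given here.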

How the data were processed

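RNA from sorted SP and non-SP cells (3 samples each) was purified, amplified by a method meant for picogram inputs and labelled with biotin, per the labels' protocols; such amplification widens the spread of weak transcripts. The deposited numbers are log2 levels, 1 per probe set and array, which the authors made with R 2.8.1, affy and RMA, per the submitters' processing notes; no other setting is given in the sources used here. RMA compresses differences near background and hides a global change in RNA content. For arrays, their number limits the precision.

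Of 54675 probe sets, 62 controls were left out. The platform annotation gave 41091 probe sets 1 symbol, 1801 several and 11721 none; 41037 matched RefSeq (GRCh38.p14) by Entrez ID, and 0 symbols changed. A gene's value is that of its brightest probe set (by the mean of the 6 arrays), with no filter. Log2 differences, SP minus non-SP, were fitted over all 6 samples by lmFit and eBayes (limma 3.58.1, R 4.3.3; two-sided), with Benjamini-Hochberg adjustment over all genes, and again over all probe sets. Intervals are at the 95% level. Python 3.11.15, pandas 2.3.3 and matplotlib 3.10.9 were used for tables and figures. The gene-level fit was tested on simulated data (5 simulations of 19775 genes, 200 of them changed). It recovered 55.5% of changes of 1 log2 unit and 92.8% of changes of 2, so changes of the size seen here would often be missed. The simulated noise was independent between genes and arrays and held no ASNS sets, so these shares may be too high for the real arrays. There, 275 of 19775 genes differed by more than 1 log2 unit and 1 gene passed. ABCB1, with a difference of 4.78, did not pass (limma adjusted p = 0.12).

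The members and lists were chosen with earlier results of these data known. Genes were given in full where the unadjusted p was under 0.05, the groups did not overlap, or the p was among the 2 smallest of a role; levels were added for the gene with the highest mean of each role, and PCNA, MCM2, CDC6, CDT1, CCNE1 and CCNE2 were always named. Other replication genes were named at an unadjusted p under 0.05. Alternatives are given in the closing section.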

Additional observations from a re-analysis of the deposited data

How the results depend on the processing

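Under 17 alternatives 0 of the 54 genes passed the adjusted threshold, and 0 of 107 probe sets did under 8. The median difference of the members stayed above 0, from 0.0021 without non-SP replicate 2 to 0.17 with the ASNS set as a block. It was 0.01 with array weights, 0.05 with probe sets averaged per gene and 0.11 with each array centred on its median. With the replicate number of the titles as a block, 0 members passed, the median was 0.08 and 5 members, rather than 4, were higher at an unadjusted p under 0.05 (4.25% of all genes); 0 probe sets passed. Deviations from the group means correlated at 0.45, 0.38 and -0.21 for numbers 1 to 3. Over all pairs of an SP and a non-SP sample, correlations were positive within an ASNS set (0.30 to 0.45) and negative across the sets. The correlations thus follow the ASNS sets and cannot tell whether the numbers pair the samples. The count of members higher at that level ran from 2 without SP replicate 2 (2.34% of all genes) to 13 with the ASNS set as a block (5.1% of all genes). It was 7 without non-SP replicate 3, with probe sets averaged and with array weights, where 2.74%, 3.81% and 5.44% of all genes were higher, and 9 with the ACTB signal as a covariate, where 4.97% were. Members lower at that level numbered 4 with array weights, against 6.42% of all genes, and 2 without SP replicate 1 or without non-SP replicate 2, against 4.77% and 4.61% of all genes. The fit with the ASNS set as a block and without non-SP replicate 2 was chosen after seeing the data.

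Of 23 genes whose difference was named, 15 kept their sign in the up to 16 alternatives that give 1 value per gene, and 0 passed, with a smallest adjusted p of 0.168. Taken singly, probe sets of the opposite sign were present for MCM10, POLA2, CHAF1A and RFC5 among these 15. With 1 sample left out CDT1 ranged from -0.15 to 1.11, MCM2 from -0.039 to 0.073, CCNE1 from -0.090 to 0.33, CCNE2 from -0.028 to 0.38, RRM1 from -0.12 to 0.25 and RRM2 from -0.20 to 0.25. With array weights MCM2, RRM1 and RRM2 turned to -0.0027, -0.11 and -0.020. RFC1 turned to -0.020 with the mean of its probe sets. With the ASNS set as a block and without non-SP replicate 2, CDC6, CCNE2 and RRM2 turned to -0.12, -0.21 and -0.22. The cause was not tested.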
